A study of Mus musculus with 28 samples.

Results

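Gene expression was compared between the luminal and the basal gate of YFP-positive mammary cells sorted 10 months after tamoxifen from K5CREERT2/PIK3CA-H1047R/RosaYFP mice, called K5-PIK here. The arrays are those whose labels name these mice, this time and a gate: 2 of the luminal gate and 2 of the basal gate, 4 of the 28 arrays of the series. In these mice the K5 promoter, active in basal mammary cells, drives a Cre recombinase that works only after tamoxifen. Cre switches on the fluorescent reporter RosaYFP and PIK3CA-H1047R, a mutant of the catalytic subunit of PI3-kinase that signals without a growth factor. YFP therefore marks cells that had Cre activity and their descendants, whichever gate they are later found in. All mice were female and were given 3 injections of 5 mg tamoxifen, spaced 3 days apart, from the age of 4 to 5 weeks. Glands were digested with collagenase and hyaluronidase, and stained single cells were sorted before RNA was extracted.

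Other groups served as references. Normal cells of the same age, called YFP, carried no PIK3CA-H1047R: their luminal gate came from K8CREERT2/RosaYFP mice, whose K8 promoter is active in luminal cells, and their basal gate from K5CREERT2/RosaYFP mice, both 10 months after tamoxifen with 2 arrays each. K8-PIK cells came from K8CREERT2/PIK3CA-H1047R/RosaYFP mice 8 weeks after tamoxifen, with 2 arrays of the luminal and 2 of the basal gate. The labels do not say whether replicates came from separate mice, so p-values measure only the spread between these samples, which may be technical. The samples are bulk RNA, in which fewer cells of a type and less RNA per cell cannot be told apart. The comparison addresses how far K5-targeted cells found in the luminal gate carried a luminal programme after long exposure to the oncogene.

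The mammary duct is a double-layered tube. Inner luminal cells are joined by tight junctions and are either hormone-sensing, with oestrogen and progesterone receptors, or progenitor and alveolar cells that make milk under prolactin, STAT5 and ELF5. Outer basal cells express keratins 5 and 14 and the transcription factor p63, contract through smooth muscle proteins and are anchored to the basement membrane by hemidesmosomes, and in the adult gland each layer is known to be maintained mostly by its own cells.

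The promoters of 4 genes are shown because they come from groups that went mostly in opposite directions between the gates, milk proteins and contractile proteins. Each promoter also holds a motif classically tied to its group. They are the 250 bases before the start site, from RefSeq (GRCm38.p6), 5′ to 3′ on the strand of the gene, with the motif in capitals. In the casein promoters the capitals mark TTCNNNGAA, the letters bound by STAT factors. In the contractile promoters they mark a CArG box, the binding site of serum response factor. Both motifs have the same form on either strand, and none of the 4 promoters held both.
Csn2, beta-casein, chr5:87699426-87699675, minus strand: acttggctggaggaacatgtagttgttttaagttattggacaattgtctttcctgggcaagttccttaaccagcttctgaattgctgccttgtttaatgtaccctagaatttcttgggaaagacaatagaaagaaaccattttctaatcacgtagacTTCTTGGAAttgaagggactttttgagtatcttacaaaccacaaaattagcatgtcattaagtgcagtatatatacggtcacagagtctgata
Csn1s1, alpha-S1-casein, chr5:87665958-87666207, plus strand: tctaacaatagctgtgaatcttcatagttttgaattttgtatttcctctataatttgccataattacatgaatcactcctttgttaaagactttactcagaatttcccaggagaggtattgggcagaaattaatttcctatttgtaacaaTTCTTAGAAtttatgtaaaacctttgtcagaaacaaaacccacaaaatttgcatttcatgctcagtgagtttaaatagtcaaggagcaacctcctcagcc
Myl9, myosin regulatory light chain, chr2:156775214-156775463, plus strand: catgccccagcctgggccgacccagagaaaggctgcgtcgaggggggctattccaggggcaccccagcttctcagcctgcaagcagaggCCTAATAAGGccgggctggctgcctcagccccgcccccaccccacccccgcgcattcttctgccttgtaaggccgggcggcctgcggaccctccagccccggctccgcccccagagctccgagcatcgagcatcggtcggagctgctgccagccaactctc
Cnn2, calponin 2, chr10:79988350-79988599, plus strand: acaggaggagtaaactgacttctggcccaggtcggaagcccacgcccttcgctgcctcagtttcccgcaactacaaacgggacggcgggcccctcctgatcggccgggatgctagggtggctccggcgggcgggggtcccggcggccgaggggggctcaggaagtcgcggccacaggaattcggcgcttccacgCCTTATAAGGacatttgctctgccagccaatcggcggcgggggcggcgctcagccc
The motifs begin 93 bases before the start in Csn2, 100 in Csn1s1, 161 in Myl9 and 56 in Cnn2. In windows of 300 bases that also take in 50 bases after the start, TTCNNNGAA occurred in 2726 of 32851 RefSeq promoters (8.30%) and, by genes, in 875 of the 10529 tested genes with a window (8.31%) and in 4 of the 12 tested milk genes. The CArG box occurred in 535 of the 32851 promoters (1.63%), and by genes in 175 of the 10529 tested (1.66%) and in 4 of the 17 tested contractile genes. A match is a description of the letters and not evidence of binding.

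The deposited log2 values covered 45141 probe sets on each array, from which 17097 genes were drawn, and 13150 of them passed the filter on dim genes and were tested. The 2 luminal K5-PIK arrays correlated across genes at r = 0.973, the lowest of the 8 sorted groups, and the 2 basal arrays at 0.983, against 0.924 to 0.938 between the gates. The median absolute difference between the 2 replicates of a gene was 0.302 in the luminal gate and 0.246 in the basal gate, against 0.138 and 0.201 in luminal and basal YFP cells. The pooled spread can therefore understate that of the K5-PIK arrays. The 2 luminal arrays thus stood apart from each other, and these values do not say which is the outlier. Some results are therefore also given with 1 array left out. In all values below a level is a log2 expression value, and a difference is the luminal mean minus the basal mean on that scale, so that 1 unit is a doubling. A level near the 40th percentile of its array, 3.89 to 3.99, is close to that of genes that are off, where differences are understated.

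The gates matched their labels by most defining markers. Of the luminal markers Cd24a (difference 0.26 ± 0.17, limma adjusted p = 0.301) was not called, nor were Esr1 and Pgr, given below. Krt5, the basal keratin 5, stood at 8.66 and 8.69 in the luminal arrays and at 11.55 and 11.81 in the basal arrays, a difference of -3.0 ± 0.32 (SE, limma adjusted p = 2.79e-05). Its partner Krt14 stood at 9.17 and 8.43 against 11.74 and 11.72, lower by 2.93 (-2.93 ± 0.31, adjusted p = 2.92e-05). Neither keratin overlapped between the gates, but both remained well above the dim range in the luminal gate. Trp63, the basal transcription factor p63, stood at 5.55 and 6.19 against 9.68 and 10.32 (difference -4.13 ± 0.31, adjusted p = 2.44e-06). On the luminal side Krt18 stood at 11.73 and 11.70 against 10.34 and 9.99 (difference 1.55 ± 0.27, adjusted p = 0.00122). Its partner Krt8 stood at 12 and 11.91 against 11.34 and 11.03 (difference 0.77 ± 0.17, adjusted p = 0.00623), so Krt8 and Krt18 were high in both gates. Over the alternative settings the adjusted p ran from 1.23e-05 to 0.0547 for Krt5, highest with all 28 arrays in the fit. For Krt8 it ran from 0.000978 to 0.105, and the call was lost with all 28 arrays (0.105), with the 4 K5-PIK arrays alone (0.0964) and without basal replicate 2 (0.0616).

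Pik3ca, the mouse gene of the PI3-kinase subunit whose mutant was switched on, was measured at 7.35 and 7.34 in the luminal and 7.75 and 8.10 in the basal arrays, a difference of -0.58 ± 0.17 (adjusted p = 0.0233). The call was lost without luminal replicate 1 (adjusted p = 0.0668), luminal replicate 2 (0.0695) or basal replicate 2 (0.178), and the adjusted p ran from 0.0174 to 0.192 over all alternatives. Whether its probe sets read the PIK3CA-H1047R transcript is not stated in the labels.

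Between the gates 3097 of 13150 genes were called at an adjusted p under 0.05 (23.6%), 1362 of them higher (10.4%) and 1735 lower (13.2%) in the luminal gate, while the median gene differed by -0.01. The arrays of the gates did not overlap in 7049 genes (53.6%), the 3097 called genes among them. Without luminal replicate 1 the count was 2777. At least 2-fold, 720 called genes were higher (5.48%) and 1057 lower (8.04%). At a difference of at least 3 units, 61 genes were higher (0.464%) and 135 lower (1.03%). The largest falls included Wif1, a secreted Wnt inhibitor, from a mean of 7.75 in the basal to 2.97 in the luminal gate, and Cxcl12, a chemokine, Lgr5, a receptor that amplifies Wnt signals, Antxr1, Lhfp, Ackr4, Gfra1, Col14a1, Cnn1 and Pla2g7. Their differences ran from -4.78 for Wif1 to -4.38 for Pla2g7, and all held under every alternative setting. Ugt1a9 and Ugt1a6a were also among the 12 largest falls, but they are isoforms of 1 locus that share exons and cannot be counted as independent. The largest rises were Ido1, which breaks down tryptophan, with levels of 7.59 and 9.53 against 3.59 and 4.13 (difference 4.70 ± 0.67, adjusted p = 0.000251), and Amtn, amelotin, a secreted protein known from tooth enamel. They were followed by Fxyd2, a sodium pump regulator, Ckmt1, a mitochondrial creatine kinase, Tspan33, Tlcd4, Foxa1, Hp, Clic6, Prom1, Csn1s1 and Fam25c, down to a difference of 3.82. Of these 12, Fxyd2, Tlcd4, Csn1s1 and Fam25c were no longer called with all 28 arrays (adjusted p from 0.0541 to 0.0844).

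**Figure D1:**
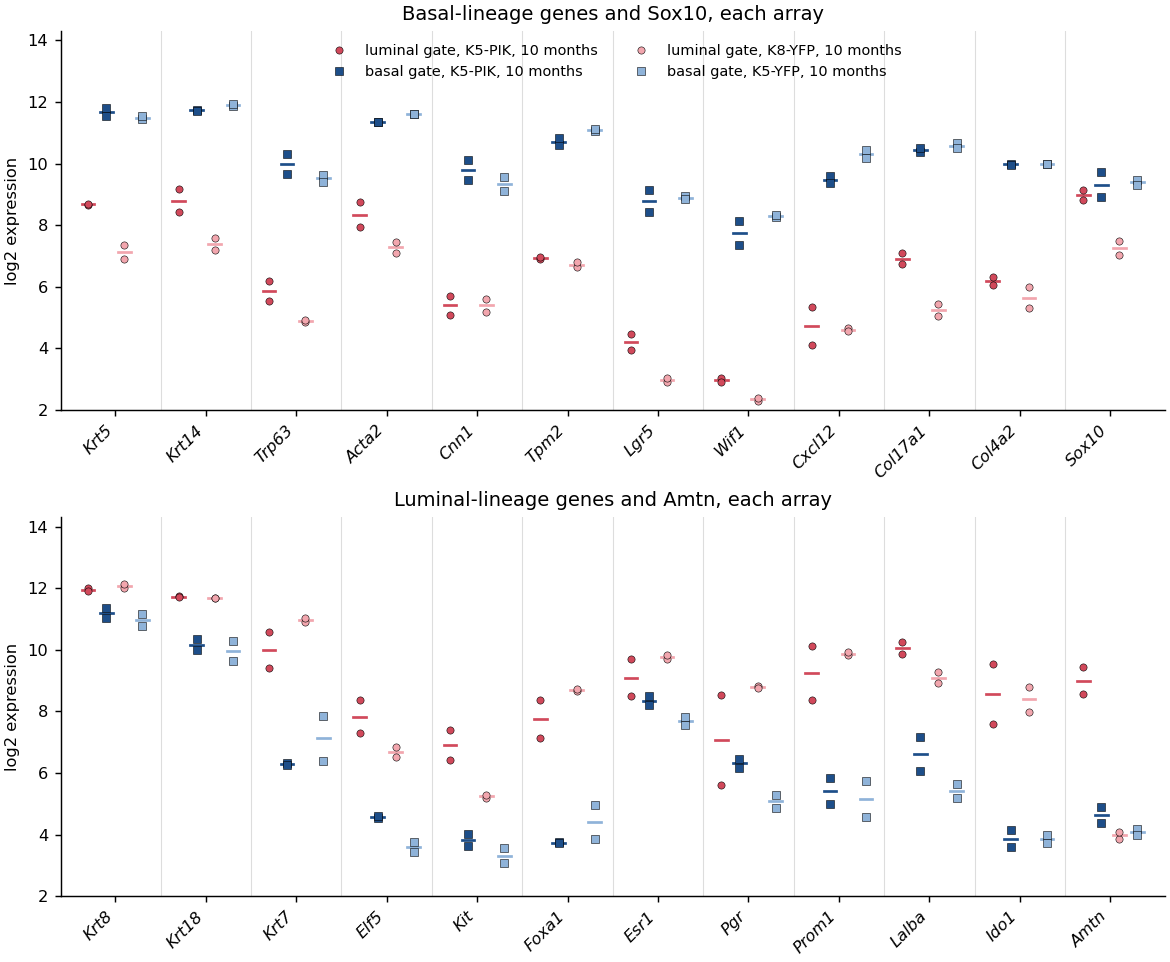
Log2 expression (y axis) of 24 genes (x axis) on each array: K5-PIK cells of the luminal (red circles) and basal gate (dark blue squares) and YFP cells of the luminal (pink circles) and basal gate (light blue squares), with 1 point per array and a bar at the mean of 2. Trp63, Lgr5 and Wif1 separated the K5-PIK gates by more than 4 units, Sox10 did not separate them, Pgr spread from 5.62 to 8.54 within the luminal gate, and Amtn was high in the luminal K5-PIK arrays alone among these 8.

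Genes of basal identity were lower in the luminal gate. Of 15 tested members of the list of basal keratins, transcription factors and surface genes, 13 were lower and none was higher, with a median difference of -2.17. In YFP cells 14 of the 15 were lower (17.6% of all genes were lower there, 25.8% higher), with a median of -3.34. Cdh3, P-cadherin, the adhesion protein of basal cells, stood at 5.72 and 5.73 against 9.40 and 9.57 (difference -3.76 ± 0.31, adjusted p = 5.89e-06). Snai2, a transcription factor of basal and mesenchymal cells, stood at 4.18 and 3.93 against 6.26 and 6.19 (difference -2.17 ± 0.16, adjusted p = 1.95e-06). Dll1, a Notch ligand of basal cells, stood at 5.82 and 5.72 against 8.83 and 8.99 (difference -3.14 ± 0.23, adjusted p = 1.95e-06). Within each gate the arrays lay close together for these 3 genes, a small spread beside the differences.

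The contractile programme of myoepithelium followed the same direction in the luminal gate. Of 19 tested genes 15 were lower and 1 higher (median -1.97), against 14 lower and none higher in YFP cells (median -1.34). Acta2, smooth muscle actin, stood at 7.95 and 8.74 in the luminal and 11.36 and 11.35 in the basal arrays (difference -3.01 ± 0.48, adjusted p = 0.000591). Cnn1, calponin 1, stood at 5.10 and 5.69 against 9.47 and 10.11 (difference -4.40 ± 0.36, adjusted p = 5.37e-06). Myl9, whose promoter is printed above, stood at 6.23 and 7.02 against 10.60 and 10.85 (difference -4.10 ± 0.37, adjusted p = 9.95e-06). Tpm2, tropomyosin 2, stood at 6.90 and 6.97 against 10.60 and 10.84 (-3.79 ± 0.23, adjusted p = 6.74e-07), and Mylk, myosin light chain kinase, and Cald1, caldesmon, were lower by 3.15 (-3.15) and 3.56 (-3.56). Acta2 and Mylk thus stayed well above the dim range in the luminal gate, and Cnn1 came closer to it. The medians of K5-PIK and YFP cells were not tested against each other. Mylk alone of the 19 was called for a luminal-minus-basal difference unlike that of YFP cells. It was less negative in K5-PIK cells, by 2.3 to 2.4 when 1 array was left out, and was not called with all 28 arrays (limma adjusted p = 0.343). Acta2 was less negative by 0.91 to 1.71 and was not called. The 1 member that was higher, Mrtfb, a cofactor of serum response factor, differed by 0.61 (adjusted p = 0.025). Its call was lost without basal replicate 1 (0.169) or luminal replicate 2 (0.113), with the 4 arrays alone (0.174) and with all 28 arrays (0.231).

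Genes of attachment to the basement membrane were lower as well. Of 16 tested hemidesmosome and basement membrane genes 14 were lower in the luminal gate and none was higher (median -2.13). Col17a1, collagen XVII of the hemidesmosome, stood at 7.08 and 6.73 against 10.39 and 10.50 (difference -3.53 ± 0.41, adjusted p = 5.79e-05). Col4a2, a chain of basement membrane collagen IV, stood at 6.31 and 6.06 against 10.00 and 9.96 (-3.79 ± 0.33, adjusted p = 7.72e-06), and Nid1, nidogen, which links laminin to collagen IV, was lower by 3.29 (-3.29). Outside the basement membrane 10 of 16 collagens were lower and 1 was higher (median -1.88): Col7a1, the anchoring fibril collagen, differed by -2.83, while Col8a1 went the other way at 7.04 and 8.17 against 5.75 and 5.34 (2.06 ± 0.33, adjusted p = 0.00066). Of 13 metalloproteases and their inhibitors 7 were lower and none higher, led by the aggrecanases Adamts1 (-3.95) and Adamts5 (-3.43) and by Mmp2 (-3.71), which degrades collagen IV. Of 8 serpin protease inhibitors 7 were lower (median -1.70), against 5 in YFP cells (median -0.80). Among the 7 were Serpina3n (-4.20) and Serpinh1, a collagen chaperone (-1.75). With all 28 arrays the called members fell to 9 of the hemidesmosome list, 5 of the collagens and 4 of the proteases.

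Genes of luminal identity were higher in the luminal gate, though fewer passed than on the basal side. Of 19 tested luminal keratins, surface genes and transcription factors 11 were higher and 1 lower, with a median difference of 1.02. The 7 not called included the transcription factor Gata3 (-0.18, adjusted p = 0.676) and E-cadherin, Cdh1 (0.79, adjusted p = 0.0641). Krt7, keratin 7 of simple epithelia, stood at 9.41 and 10.58 in the luminal and 6.31 and 6.25 in the basal arrays (difference 3.71 ± 0.44, adjusted p = 6.99e-05). Ehf, an epithelial ETS factor, stood at 8.85 on both luminal arrays against 6.07 and 5.29 (3.17 ± 0.49, adjusted p = 0.000495). Muc1, an apical mucin, stood at 10.19 and 8.79 against 7.31 and 5.65 (3.01 ± 0.56, adjusted p = 0.00187), with a wide spread in both gates that still did not overlap. The 1 lower member was Tfap2c, the transcription factor AP-2 gamma, at -1.80, which was lower in YFP luminal cells too (-2.56) and was not called with all 28 arrays (adjusted p = 0.161). Tight junction and apical polarity genes were the list with the highest median, 2.09, and 13 of 19 were higher and none lower. Marveld2, tricellulin, stood at 8.25 and 8.32 against 5.28 and 5.11 (3.09 ± 0.32, adjusted p = 2.68e-05), and occludin, Ocln, and claudin 7, Cldn7, were higher by 3.17 and 3.10. With all 28 arrays 7 luminal identity genes were called.

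**Figure D2:**
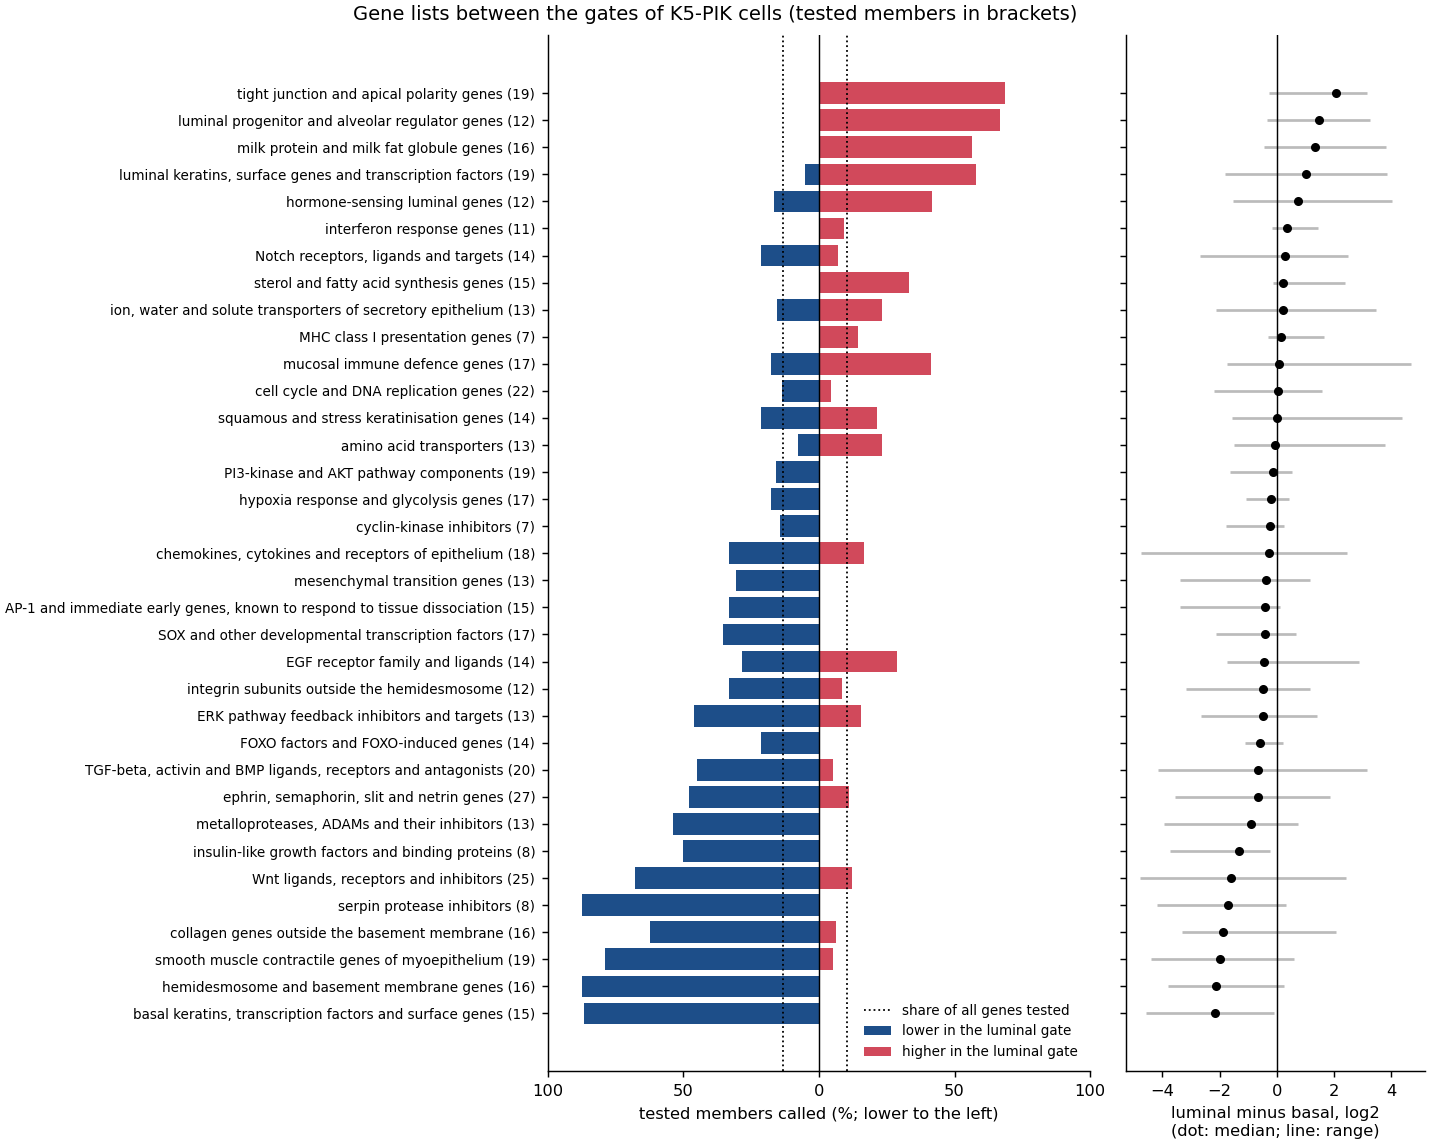
Left, the share of tested members of each list (number in brackets) called higher (red, to the right) or lower (blue, to the left) in the luminal gate of K5-PIK cells, in percent, with dotted lines at the shares of all genes, 10.4% higher and 13.2% lower; right, the median difference of each list in log2 units (dot) and its range (line). Basal, contractile, basement membrane, collagen, serpin and Wnt genes lie at the lower end, with medians from -2.17 to -1.62, and tight junction, progenitor, milk and luminal identity genes at the upper end, with medians from 1.02 to 2.09.

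Hormone-sensing genes divided. Of 12 tested, 5 were higher and 2 lower in the luminal gate (median 0.76), against 7 higher and none lower in YFP cells (median 1.56). Foxa1, the pioneer factor that opens oestrogen receptor sites, stood at 7.13 and 8.38 against 3.76 and 3.72 (difference 4.02 ± 0.39, adjusted p = 1.55e-05), dim in the basal gate. Stc2, stanniocalcin 2, an oestrogen-induced hormone, stood at 9.25 and 10.82 against 6.86 and 6.25 (3.48 ± 0.43, adjusted p = 8.42e-05), and Wnt4, the Wnt ligand induced by progesterone, at 7.49 and 8.52 against 6.41 and 5.60 (2.01 ± 0.35, adjusted p = 0.00125). The receptors themselves did not pass. Esr1, the oestrogen receptor, stood at 8.51 and 9.69 against 8.49 and 8.20 (0.76 ± 0.33, adjusted p = 0.124), so luminal replicate 1 lay at the level of the basal gate. Pgr, the progesterone receptor, stood at 5.62 and 8.54 against 6.17 and 6.46 (0.77 ± 0.64, adjusted p = 0.441), and there luminal replicate 1 lay below both basal arrays. When 1 array was left out, the difference ran from 0.16 to 1.35 for Esr1 and from -0.69 to 2.23 for Pgr. The -0.69 of Pgr was the value without luminal replicate 2, so even its sign rested on single arrays. Cited1, a coactivator of the oestrogen receptor, was higher by 3.51, and Tbx3, a T-box transcription factor of the mammary gland, was lower at -1.51. The other lower member was Greb1, an oestrogen-induced gene (-1.13), whose call was lost when any 1 of the 4 arrays was left out (adjusted p from 0.0805 to 0.169). With all 28 arrays Cited1 (0.0691), Tbx3 (0.149) and Greb1 (0.0778) were lost, and 4 members were called.

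Progenitor, alveolar and milk genes called between the gates were all higher in the luminal gate. Of 12 tested progenitor and alveolar regulators 8 were higher and none lower (median 1.47), against 7 higher and 1 lower in YFP cells (median 1.21). Of 16 milk genes 9 were higher and none lower (median 1.34), against 10 higher and none lower in YFP cells (median 1.84). Elf5, the transcription factor that drives alveolar fate, stood at 7.29 and 8.36 against 4.53 and 4.61 (difference 3.26 ± 0.28, adjusted p = 6.7e-06). Kit, the receptor of stem cell factor and a mark of luminal progenitors, stood at 6.41 and 7.39 against 3.62 and 4.01 (3.08 ± 0.30, adjusted p = 1.55e-05). Aldh1a3, a retinaldehyde dehydrogenase of luminal progenitors, stood at 9.79 and 8.57 against 6.62 and 5.75 (2.99 ± 0.48, adjusted p = 0.000659). All 3 were separated by more than the spread within either gate. Among milk genes Lalba, alpha-lactalbumin of the lactose synthase, stood at 9.86 and 10.25 against 7.18 and 6.07 (3.43 ± 0.36, adjusted p = 2.5e-05). Csn1s1 stood at 10.59 and 11 against 7.49 and 6.45 (3.83 ± 0.74, adjusted p = 0.00235). Csn2 stood at 9.81 and 7.88 against 6.50 and 4.47 (3.36 ± 0.99, adjusted p = 0.0262), a spread of about 2 units in each gate, and it was not called without luminal replicate 1 (0.171), without basal replicate 2 (0.201) or with all 28 arrays (0.272). Without basal replicate 2 the called progenitor members fell to 5, and with all 28 arrays the lists held 5 and 4 called members.

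Sox10, a transcription factor of progenitors and neural crest, did not differ between the gates at this precision. It stood at 9.15 and 8.81 in the luminal and 8.92 and 9.72 in the basal arrays, which overlapped (difference -0.33 ± 0.26, adjusted p = 0.397). In YFP cells it stood at 7.47 and 7.02 in the luminal and 9.48 and 9.32 in the basal arrays. Luminal minus basal was therefore higher in K5-PIK than in YFP cells by 1.82 ± 0.36 (adjusted p = 0.017), a call that was lost without luminal YFP replicate 2 (0.0887), basal YFP replicate 1 (0.0833) or luminal K5-PIK replicate 1 (0.059), and with all 28 arrays (0.615).

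The luminal arrays differed from each other in several lists. In replicate 2, 9 of 12 hormone-sensing genes were higher than in replicate 1, with a median difference between the replicates of 0.86 against 0.01 for all genes. Pgr (2.92 higher), Cited1 (1.71), Stc2 (1.57), Foxa1 (1.25) and Esr1 (1.18) led them. In replicate 1, 12 of 16 milk genes were higher (median of replicate 2 minus replicate 1 -0.23), led by Csn2 (-1.93) and Csn1s2a (-1.84). Progenitor genes divided near the share of all genes: 7 of 12 were higher in replicate 1 (median -0.23), beside 6504 of 13150 genes tested. Lif (-1.26) and Aldh1a3 (-1.23) went furthest that way, and Elf5 (1.07) and Kit (0.98) went the other way. In the basal gate, milk and progenitor genes were likewise higher in replicate 1 (medians of replicate 2 minus replicate 1 -0.38 and -0.41). Markers of some other cell types, and mesenchymal genes, were also lower in luminal replicate 2. The median of replicate 2 minus replicate 1 was -1.02 for fibroblast markers (7 of 9 lower), -0.60 for endothelial markers (10 of 12), -0.47 for immune markers (11 of 11) and -0.69 for mesenchymal genes (12 of 13). It was -0.26 for Schwann cell, -0.02 for pericyte and 0.06 for erythroid markers. Fabp4, the 1 tested adipocyte marker, differed by -2.09. For fibroblast, endothelial, immune and mesenchymal genes and Fabp4 the basal arrays differed in the same direction. Their medians were -0.64 for fibroblast, -0.90 for endothelial and -0.55 for immune markers, -0.36 for mesenchymal genes and -1.34 for Fabp4. With 1 array on each side these are differences between arrays, with no test, and the part of other cells in them was not tested.

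**Figure D3:**
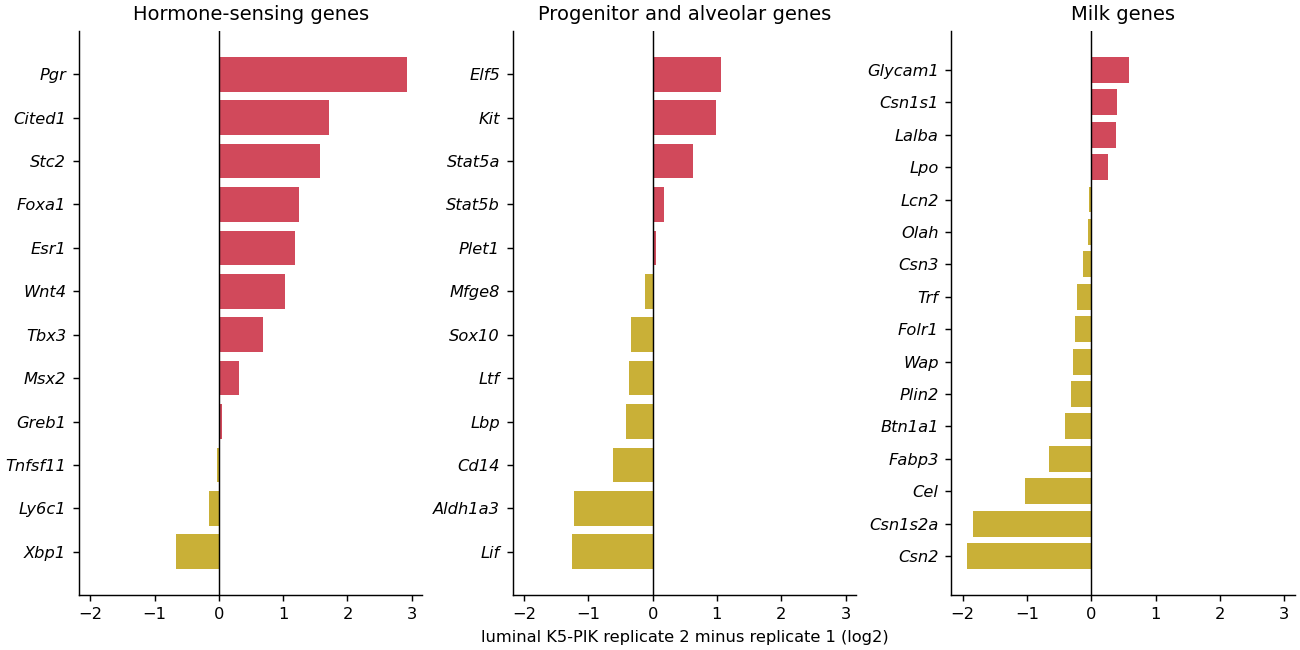
Luminal K5-PIK replicate 2 minus replicate 1, in log2 units (x axis), for each tested hormone-sensing gene, progenitor or alveolar gene and milk gene; red bars are higher in replicate 2 and yellow bars in replicate 1. Hormone-sensing genes lean to replicate 2, from Pgr at 2.92, and milk genes to replicate 1, down to Csn2 at -1.93.

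Secreted signals and their receptors were mostly lower in the luminal gate. Of 25 tested Wnt ligands, receptors and inhibitors 17 were lower and 3 higher (median -1.62), against 15 lower and 5 higher in YFP cells (median -1.06). Lgr5 stood at 4.46 and 3.96 against 8.42 and 9.14 (difference -4.57 ± 0.28, adjusted p = 6.31e-07), and the inhibitors Wif1 (-4.78) and Dkk3 (-3.93) and the ligand Wnt10a (-3.78) were lower as well. The higher ones were ligands: Wnt7b stood at 7.77 and 8.13 against 5.73 and 5.35 (2.41 ± 0.26, adjusted p = 3.47e-05), with Wnt4, described above, and Wnt5b (1.38), which was not called with all 28 arrays (adjusted p = 0.202). Of the genes named here, the inhibitors and the receptor were thus highest in the basal gate, and ligands were found on both sides.

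Of 20 TGF-beta, activin and BMP genes 9 were lower and 1 was higher. The activin antagonist Fst stood at 6.95 and 5.40 against 10.41 and 9.87 (difference -3.96 ± 0.54, adjusted p = 0.000174). The ligand Bmp7 stood at 4.20 and 3.99 against 7.63 and 7.70 (-3.57 ± 0.20, adjusted p = 5.38e-07), and the coreceptor Tgfbr3 was lower at -3.19. Ltbp1, which holds latent TGF-beta in the matrix, went the other way at 9.07 and 8.79 against 6.39 and 5.18 (3.15 ± 0.37, adjusted p = 6.78e-05). Of 8 insulin-like growth factor genes 4 were lower: the receptor Igf1r stood at 6.68 and 6.38 against 7.82 and 7.74 (-1.26 ± 0.18, adjusted p = 0.00027), and Igfbp3, which binds the growth factors, differed by -3.73. With all 28 arrays 2 of the 8 were called. In the Notch list 1 of 14 was higher and 3 were lower. The receptor Notch1 was lower in the luminal gate, with differences of -0.71 and -0.65 on its 2 probe sets. The receptor Notch3 stood at 9.10 and 9.27 against 6.77 and 6.61 (2.50 ± 0.32, adjusted p = 0.000116), and its ligand Jag1 at 7.60 and 7.71 against 10.45 and 10.24 (-2.69 ± 0.32, adjusted p = 6.78e-05). Notch3 and Jag1 thus lay in opposite gates. Without luminal replicate 1, and with all 28 arrays, the called members of the Notch list fell to these 2.

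Among receptors of the EGF family Erbb3, the neuregulin receptor that signals to PI3-kinase, stood at 8.45 and 9.42 against 6.18 and 5.96 (difference 2.86 ± 0.39, adjusted p = 0.000184). Of the 14 tested members 4 were higher and 4 lower, a count that fell to 5 without luminal replicate 2 or basal replicate 1, to 3 with all 28 arrays and to 1 with the 4 arrays alone. Of 13 ERK feedback genes 2 were higher and 6 lower. Spry1, an inhibitor of receptor signalling, stood at 4.77 and 4.73 against 7.46 and 7.30 (-2.63 ± 0.21, adjusted p = 4.62e-06), and Spred1 and Etv5 were lower by 1.65 (-1.65) and 1.76 (-1.76). The called members of that list fell to 5 without luminal replicate 2 or basal replicate 2, and to 4 with the 4 arrays alone. PI3-kinase and AKT pathway genes stood near the background, with 3 of 19 lower and none higher (median -0.12). FOXO factors and FOXO-induced genes, which AKT keeps off, had 3 of 14 lower and none higher. Rbl2, a pocket protein, stood at 5.73 and 5.65 against 6.77 and 6.85 (-1.12 ± 0.23, adjusted p = 0.00368), and Cited2, a transcriptional coregulator, at 9.38 and 9.47 against 10.52 and 10.37 (-1.02 ± 0.22, adjusted p = 0.00432).

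Cell cycle genes hardly separated the gates. Of 22 tested 1 was higher and 3 lower (median 0.03), and called members fell to 2 without luminal replicate 2, with the 4 arrays alone or with all 28, and to 1 without basal replicate 1. The exception that held under every setting was Ccnd1, cyclin D1, which stood at 9.66 and 10.27 against 8.48 and 8.26 (difference 1.59 ± 0.21, adjusted p = 0.000127). Sterol and fatty acid synthesis genes had 5 of 15 higher and none lower, among them Scd1, stearoyl-CoA desaturase, at 10.24 and 10.39 against 8.20 and 7.63 (2.40 ± 0.34, adjusted p = 0.000224), and Dhcr7, the last enzyme of cholesterol synthesis (1.74). That count fell to 3 without luminal replicate 2 or with all 28 arrays, and to 2 without basal replicate 2 or with the 4 arrays alone.

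Defence and chemokine genes went both ways. Of 17 mucosal defence genes 7 were higher and 3 lower, and besides Ido1 the largest was Pigr, the receptor that carries IgA into milk, at 8.54 and 8.22 against 5.10 and 4.62 (difference 3.52 ± 0.40, adjusted p = 5.17e-05). Of 18 chemokines and cytokines 3 were higher and 6 lower, a count that fell to 5 lower and none higher without basal replicate 2. Cxcl12 stood at 5.33 and 4.12 against 9.60 and 9.37 (-4.76 ± 0.55, adjusted p = 5.33e-05), and Ccl2, which attracts monocytes, at 5.31 and 4.92 against 8.43 and 8.20 (-3.19 ± 0.27, adjusted p = 6.7e-06). With all 28 arrays 3 defence genes and 2 chemokine genes were called, and with the 4 arrays alone 5 defence genes. In the list of squamous genes Amtn was far the largest, at 9.42 and 8.56 in the luminal and 4.37 and 4.88 in the basal arrays (4.37 ± 0.47, adjusted p = 3.15e-05). Of the ephrin, semaphorin, slit and netrin genes 13 of 27 were lower and 3 higher, with Ntn4 (-3.55) in the basal gate and its relative Ntn1 (1.87) in the luminal gate.

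Immune and endothelial marker means were low in both gates, and those of some other cell types were not. None of 11 tested immune markers and none of 12 endothelial markers was called between the gates by limma, and 0 of either list had an unadjusted p under 0.05. Over the alternative settings at most 3 immune markers and 1 endothelial marker were called, both counts reached with the replicate block. The immune level, as the mean of 14 genes on an array, ran from 4.56 to 5.08 in the luminal and from 4.85 to 5.34 in the basal arrays. In both gates 3 of the 14, Ptprc, Itgam and Adgre1, lay below the 40th percentile. The endothelial mean of 12 genes ran from 4.59 to 5.15 and from 4.57 to 5.53. Of these genes only Tek, and in the luminal gate Esam, lay below the 40th percentile. Of 9 fibroblast markers 2 were lower in the luminal gate, Dcn, decorin, at 8.56 and 6.74 against 10.79 and 10.14 (difference -2.81 ± 0.52, adjusted p = 0.00157), and Fbln1, fibulin 1 (-3.20). The 3 probe sets of Fbln1 ran from -3.20 to 0.0005. Pdgfra, the defining fibroblast receptor, was below the 40th percentile in both gates. The fibroblast mean of 10 genes ran from 4.81 to 5.74 in the luminal and from 5.74 to 6.82 in the basal arrays, so it moved with the collagen, protease, serpin and mesenchymal lists, and its part in them was not tested. Erythroid markers had a mean of 7.73 to 7.74 in the luminal and 6.89 to 7.35 in the basal arrays. Of 3 tested, Alas2, the haem synthesis enzyme of red cells, was higher by 1.32 (adjusted p = 0.0373), a call lost without luminal replicate 1 (0.082), luminal replicate 2 (0.119) or basal replicate 2 (0.249). Fabp4, a fatty acid carrier of adipocytes, stood at 8.48 and 6.39 against 8.95 and 7.61 (-0.84, adjusted p = 0.431), while Adipoq and Lep were below the 40th percentile in both gates. Of 4 pericyte markers Notch3 alone was called, with Kcnj8 and Higd1b below the 40th percentile in both gates. Of 4 Schwann cell markers Ngfr, which basal mammary cells also express, was lower (-2.09) and Gfra3 higher (0.62, adjusted p = 0.0463; lost without basal replicate 1 (0.0826), without basal replicate 2 (0.194), without luminal replicate 2 (0.207)). Immediate early genes, which respond to tissue dissociation, had 5 of 15 lower in the luminal gate, led by Egr2 (-3.40), and none higher, falling to 3 without luminal replicate 1 or basal replicate 2, with the 4 arrays alone or with all 28.

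The gap between gates was then set against that of normal YFP cells, measured on other arrays. Across 13150 genes the K5-PIK and YFP gaps correlated at r = 0.721 (rho = 0.540), and with K8-PIK cells at r = 0.758 (rho = 0.601). These are descriptions across genes, which are not independent replicates. In YFP cells 5713 genes were called between the gates (43.4%), and in K8-PIK cells 2558 (19.5%), with 1388 higher (10.6%) and 1170 lower (8.9%) in the luminal gate. Of 1798 genes called and at least 2-fold higher in YFP luminal cells, 683 (38.0%) were also higher in the K5-PIK luminal gate, 18 were lower and 1097 were not called, and their median K5-PIK difference was 0.54. Of 1244 genes called and at least 2-fold higher in YFP basal cells, 805 (64.7%) were also lower in the K5-PIK luminal gate, 6 were higher and 433 were not called, with a median of -1.20. These sets were chosen on the YFP arrays, and only the K5-PIK mean differences are free of the choice. The calls are not, since both comparisons share 1 estimate of the spread of each gene. Of the 720 genes that were called and at least 2-fold higher in the K5-PIK luminal gate, 528 (73.3%) were in the first set. That set held 1798 of all 13150 genes. Of the 1057 at least 2-fold lower, 685 (64.8%) were in the second set, which held 1244 of the 13150.

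The position of each array between the normal lineages was measured with sets chosen on the 8-week YFP arrays, as the mean level of the set placed between the 10-month YFP basal mean, 0, and luminal mean, 1. On the luminal set of 1252 genes the luminal K5-PIK arrays stood at 0.575 and 0.859 and the basal ones at 0.162 and 0.207. Luminal replicate 1 thus stood apart from replicate 2, and both stood below the K8-PIK luminal arrays at 0.900 and 0.926. On the basal set of 829 genes, with 0 at the YFP luminal and 1 at the YFP basal mean, the luminal K5-PIK arrays stood at 0.180 and 0.047 and the basal ones at 0.951 and 0.882. Replicate 1 of the luminal gate was the farther of the pair from the YFP luminal mean on both sets.

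The difference of the 2 gaps, tested as an interaction, was called for 940 genes (7.15%), with 258 in which luminal minus basal was higher in K5-PIK cells (1.96%) and 682 in which it was lower (5.19%), while the median over all genes was -0.12. The luminal gates of the compared pairs also differ in Cre driver, and driver and oncogene cannot be told apart there. The count rested on single arrays: it was 65 without luminal YFP replicate 2, 85 without basal YFP replicate 1, 153 without luminal YFP replicate 1, 208 without basal K5-PIK replicate 2, 255 without luminal K5-PIK replicate 1 and 2359 without luminal K5-PIK replicate 2. It was 493 with the endothelial marker mean as a covariate, a mean that reached 7.06 in basal YFP cells and 5.53 in basal K5-PIK cells.

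**Figure D4:**
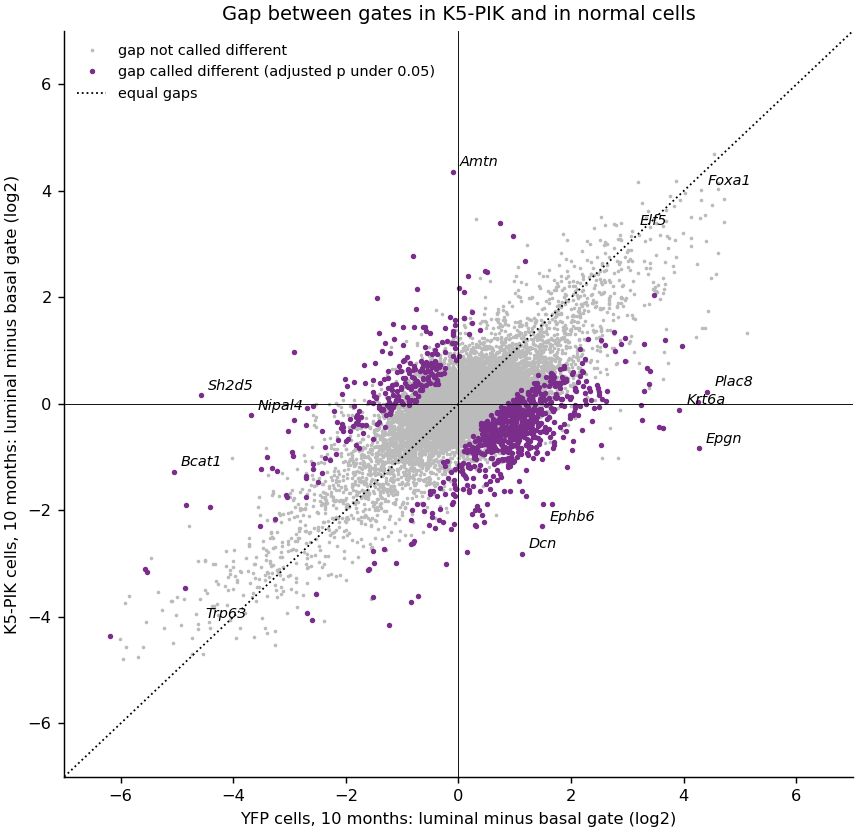
Luminal minus basal gate in YFP cells (x axis, log2) against the same in K5-PIK cells (y axis, log2) at 10 months, 1 point per gene, with the 940 genes whose gaps differed at an adjusted p under 0.05 in purple and the line of equal gaps dotted. Foxa1, Elf5 and Trp63 lie near the line, Plac8 and Nipal4 near 0 on the y axis, and Amtn near 0 on the x axis.

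Among the genes named, Plac8, Ephb6 and Nipal4 kept this call under every alternative. Plac8, a small cysteine-rich protein, stood at 4.38 and 4.86 in the luminal and 4.70 and 4.07 in the basal K5-PIK arrays, against 8.53 and 8.64 and 3.86 and 4.48 in YFP cells. Its high normal luminal level was therefore not seen in the luminal K5-PIK arrays (difference of gaps -4.18 ± 0.37, adjusted p = 0.000675). Ephb6, a kinase-dead ephrin receptor, stood at 4.88 and 5.34 against 7.34 and 7.46 in K5-PIK and at 6.18 and 6.45 against 4.67 and 5.00 in YFP cells. It was turned round, high in the basal gate of K5-PIK and in the luminal gate of YFP cells (-3.77 ± 0.47, adjusted p = 0.00378). Nipal4, a magnesium transporter, stood at 4.79 and 4.34 against 4.73 and 4.83 in K5-PIK and at 3.78 and 3.52 against 7.12 and 7.56 in YFP cells, so the level of normal basal cells was not reached (3.48 ± 0.46, adjusted p = 0.00437).

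Amtn, Bcat1, Serpinf1 and Adam19 kept the call when any 1 array was left out, and lost it with all 28 arrays (adjusted p = 0.111, 0.127, 0.207 and 0.138). Amtn was at 3.87 to 4.19 on all 4 YFP arrays and rose to 9.42 and 8.56 in the luminal K5-PIK arrays (difference of gaps 4.47 ± 0.66, adjusted p = 0.00629). It was also high in the luminal K8-PIK arrays, at 8.16 and 6.24. Bcat1, which starts the breakdown of branched-chain amino acids, stood at 2.98 and 2.74 against 4.81 and 3.46 in K5-PIK and at 2.93 and 2.86 against 8.15 and 7.76 in YFP cells (3.78 ± 0.46, adjusted p = 0.00378). Serpinf1, the antiangiogenic factor PEDF, stood at 6.45 and 6.27 against 9.35 and 9.39 in K5-PIK and at 6.95 and 7.34 against 7.01 and 7.72 in YFP cells (-2.79 ± 0.42, adjusted p = 0.00629). It was thus raised in the basal K5-PIK arrays, and Bcat1 was low in them.

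Epgn, epigen, a ligand of the EGF receptor, stood at 4.20 and 4.77 against 5.78 and 4.85 in K5-PIK cells and at 9.04 and 9.42 against 4.83 and 5.09 in YFP cells. Its difference of gaps was the lowest, -5.10 ± 0.82 (adjusted p = 0.00844), lost only without luminal YFP replicate 2 (0.0534). Spry1 was also called (-1.80 ± 0.30, adjusted p = 0.0102), and lost without luminal YFP replicate 2 (0.0569) and with all 28 arrays (0.324). Krt5 and Krt14 did not pass, with differences of gaps of 1.35 ± 0.45 and 1.57 ± 0.44 (adjusted p = 0.0784 and 0.0506). Their luminal levels of 8.43 to 9.17 in K5-PIK cells lay above the 6.90 to 7.60 of YFP luminal cells. Over the alternatives the adjusted p of Krt14 ran from 0.0141, without luminal K5-PIK replicate 2, to 0.473, and that of Krt5 from 0.0492 to 0.682.

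The last comparison set the K5-PIK gap against that of K8-PIK cells at 8 weeks, where Cre driver and time cannot be told apart. The difference of gaps was called for 72 genes (0.548%), 30 with luminal minus basal higher (0.228%) and 42 with it lower (0.319%) in K5-PIK cells. The count was 23 without basal K8-PIK replicate 1, 26 without basal K8-PIK replicate 2, 28 without luminal K8-PIK replicate 1, 27 without basal K5-PIK replicate 2, 109 without basal K5-PIK replicate 1 and 245 without luminal K5-PIK replicate 2. With all 28 arrays limma called 0 genes, while 1024 had an unadjusted p under 0.05.

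Foxa1 had the highest difference of gaps. It stood at 7.13 and 8.38 against 3.76 and 3.72 in K5-PIK cells and at 7.55 and 7.30 against 7.89 and 8.04 in K8-PIK cells, so that only the K5-PIK gates separated (difference of gaps 4.56 ± 0.55, adjusted p = 0.00378). Alcam, an adhesion molecule, showed the same pattern at 9.38 and 9.91 against 6.98 and 6.15 in K5-PIK and 9.58 and 9.32 against 9.11 and 9.44 in K8-PIK cells (2.90 ± 0.37, adjusted p = 0.00481). In both genes the basal K8-PIK cells were at the luminal level and the basal K5-PIK cells were not. Nipal4 was high in the basal K8-PIK arrays, 8.33 and 7.70, and not in the K5-PIK ones (3.87 ± 0.46, adjusted p = 0.00378).

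In other genes luminal minus basal was more negative in K5-PIK cells. Brinp3, a protein known from the nervous system, stood at 3.16 and 2.82 against 6.66 and 7.35 in K5-PIK and at 2.84 and 2.87 against 3.81 and 3.24 in K8-PIK cells (difference of gaps -3.34 ± 0.41, adjusted p = 0.00378). The transcription factor Ebf4 (-2.55 ± 0.27, adjusted p = 0.00204) and the proteases Adamts5 (-2.45 ± 0.24, adjusted p = 0.0012) and Adamts1 (-2.24 ± 0.29, adjusted p = 0.00481) had the same sign. These genes, with Foxa1, Alcam and Nipal4, kept the call when any 1 array was left out and lost it with all 28 arrays (adjusted p from 0.0524 for Ebf4 and Nipal4 to 0.587 for Brinp3). With only the arrays of the groups compared, Alcam (0.0827), Adamts1 (0.0777) and Brinp3 (0.0506) lost it too.

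**Figure D5:**
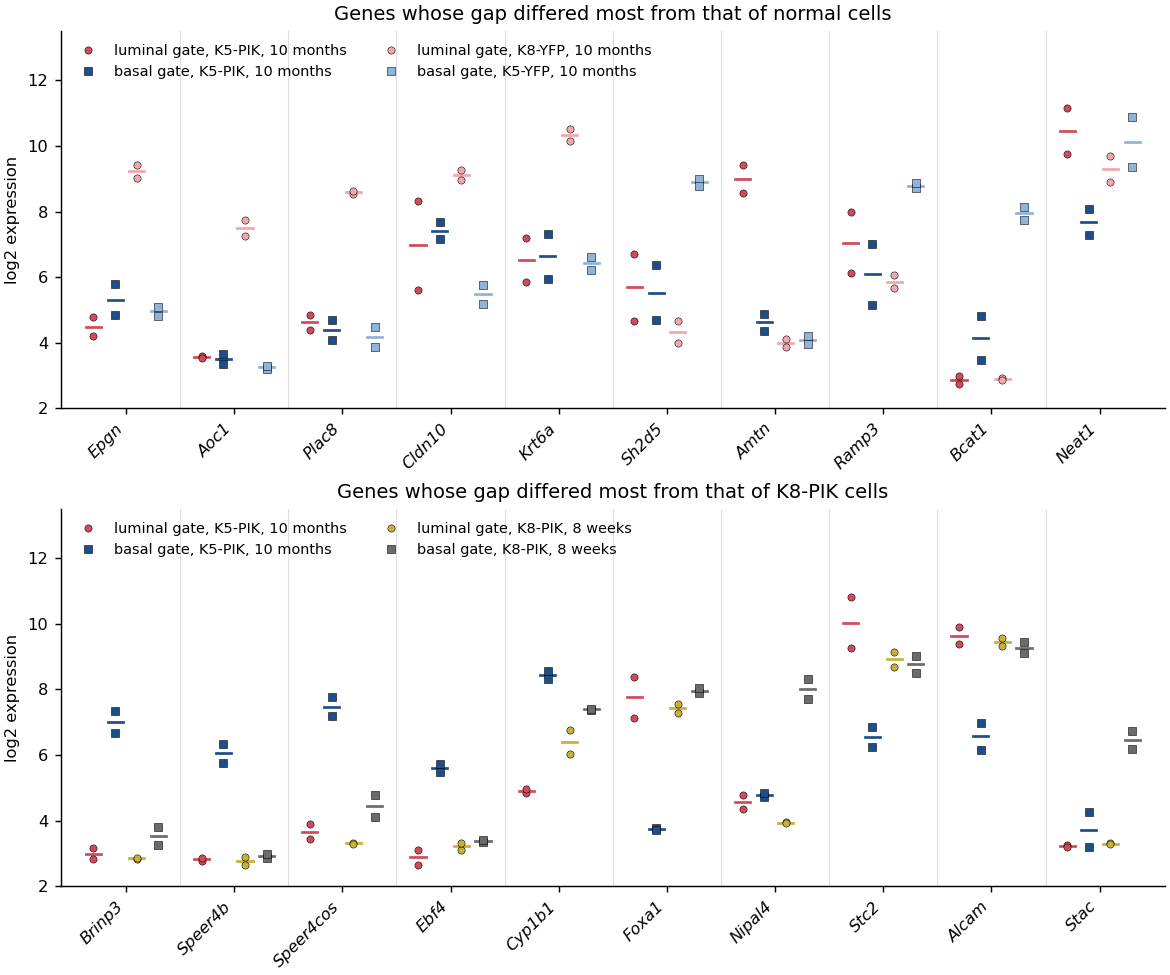
Log2 expression (y axis) on each array of the 10 genes named for the largest difference of gaps to YFP cells (top, K5-PIK and YFP arrays) and to K8-PIK cells (bottom, K5-PIK and K8-PIK arrays), with circles for the luminal and squares for the basal gate and a bar at the mean of 2 arrays. In the top panel Plac8 is high in the luminal YFP arrays and Amtn in the luminal K5-PIK arrays; in the bottom panel Foxa1 is at 3.76 and 3.72 in the basal K5-PIK arrays and at 7.89 and 8.04 in the basal K8-PIK arrays.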

How the data were processed

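RNA from sorted YFP-positive mammary cells and from tumours was measured on microarrays. The deposited values are log2 expression per probe set, made by the authors with R 2.14.0 per the submitters' processing notes; the background correction, summary and normalization are not given in the sources used here. Each array had 45141 probe sets, and 28898 of them named 1 gene in the platform annotation, 551 several and 15692 had no entry. The probe set with the highest mean stood for a gene, and genes above the 40th percentile of the array on at least 2 arrays were tested. Other probe sets of a gene could show little difference between the gates. Over all sets the difference ran from -4.13 to -0.09 for Trp63, -3.43 to 0.15 for Adamts5, -0.27 to 3.36 for Csn2 and 0.05 to 3.17 for Ehf. Of 220 named genes 1, Egfr, had probe sets that differed by over 0.5 in both directions. limma 3.58.1 in R 4.3.3 (lmFit and eBayes, Benjamini-Hochberg over 13150 genes) was fitted to the 16 sorted arrays of 8 groups, with 1 mean per group, and tested on simulated data. A call is an adjusted p under 0.05. A difference of gaps is the K5-PIK luminal-minus-basal difference minus that of the other cells.

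Named genes were the 12 largest rises and falls among called genes whose gates did not overlap, up to 4 called members per list and direction, 12 fixed lineage genes, and for each difference of gaps the 5 largest of each sign with the list members that passed. The comparison, gene lists and tests were chosen with earlier results of these data known, and the arrays were then found by their labels. Alternatives changed the arrays fitted, the filter, the probe set rule, the normalization, the prior, a replicate block, an endothelial covariate, and each array in turn. The number of arrays limits the precision. Tumour arrays entered only the fit to all 28 arrays.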

Additional observations from a re-analysis of the deposited data

Results flagged for a closer look

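The luminal-minus-basal difference itself differed between K5-PIK and YFP cells, by limma's interaction contrast, in 940 genes. Among the largest of these, luminal minus basal was lower in K5-PIK than in YFP cells, in log2 units, for Epgn at -5.10, Aoc1 at -4.20, Plac8 at -4.18, Cldn10, a claudin, at -4.09 and Krt6a, a stress keratin, at -4.03. It was higher for Sh2d5 at 4.74, Amtn at 4.47, Ramp3 at 3.90, Bcat1 at 3.78 and Neat1, a nuclear non-coding RNA, at 3.60.

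By the same contrast luminal minus basal differed between K5-PIK cells at 10 months and K8-PIK cells at 8 weeks in 72 genes. It was lower, that is more negative or less positive, in K5-PIK cells for Brinp3 at -3.34, Speer4b at -3.08, Speer4cos at -2.68, Ebf4 at -2.55 and Cyp1b1, a cytochrome P450, at -2.52. The Speer4 genes belong to a multigene family whose members share sequence, so the pair is uncertain. It was higher in K5-PIK cells for Foxa1 at 4.56, Nipal4 at 3.87, Stc2 at 3.33, Alcam at 2.90 and Stac at 2.65.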

How the results depend on the processing

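Between the gates, 3097 genes were called, 1419 with the 4 K5-PIK arrays alone, 1764 with all 28 arrays, and 2316 to 2799 when 1 array was left out. The difference of gaps to YFP cells had 940 genes, 413 with only the 8 arrays compared, 169 with all 28, 493 with the endothelial covariate and 65 to 2359 when 1 array was left out. The difference of gaps to K8-PIK cells had 72 genes, 7 with only the arrays compared, 0 with all 28 (1024 at an unadjusted p under 0.05, limma) and 23 to 245 when 1 array was left out. Of the named genes called, 109 of 191 kept the call between gates under every setting, 3 of 54 for the gap to YFP cells and 0 of 17 for the gap to K8-PIK cells. With the replicate block the counts were 3227, 1455 and 95. Same-numbered arrays of the gates deviated together at r = 0.365 in K5-PIK, -0.044 in YFP and 0.050 in K8-PIK cells, and no label says that the number marks a shared mouse or day. The labels give no batch, and 2 arrays per group limit every test.

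The sign turned under at least 1 alternative in 25 single-gene results, 0 of which were called in the reported fit and 0 of whose 51 turned values had a limma adjusted p under 0.05; the cause was not tested. For the difference between gates, leaving out 1 array gave ranges of -0.10 to 0.19 for Aoc1, -0.44 to 0.61 for Bmpr1b, -1.81 to 0.91 for Cldn10, -0.37 to 0.36 for Dtx4, -0.20 to 0.088 for Irx3, -0.14 to 0.15 for Jund, -0.79 to 0.58 for Krt6a, -0.44 to 0.015 for Nipal4, -0.74 to 0.47 for Nlrc5, -0.69 to 2.23 for Pgr, -0.083 to 0.55 for Plac8, -0.85 to 1.19 for Sh2d5, -0.25 to 1.23 for Slc7a11, -0.73 to 0.066 for Sox10 and -1.05 to 0.040 for Stac. For the gap to YFP cells they were -0.36 to 0.70 for Elf5, -0.91 to 0.34 for Foxa1, -0.50 to 0.16 for Krt18 and -0.14 to 0.20 for Pik3ca. For the gap to K8-PIK cells they were -0.54 to 0.53 for Elf5, -1.03 to 0.16 for Esr1, -0.55 to 0.39 for Krt18, -0.10 to 0.21 for Krt8 and -2.20 to 0.72 for Pgr. With the mean of probe sets the gates differed by 0.12 for Dtx4, -0.14 for Jund and 0.0064 for Krt6a, and the gap to K8-PIK cells by 0.13 for Elf5 and 0.0028 for Pik3ca. Quantile normalization gave 0.030 for Dtx4 between gates and 0.16 for Elf5 in the gap to K8-PIK cells, and the endothelial covariate 0.0045 and 0.019. The hypoxia and glycolysis list had 3 lower and 0 higher members between the gates, and 1 higher and 0 lower without basal replicate 1.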

Other observations

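Transport genes went both ways, beside a background of 10.4% of all genes higher and 13.2% lower in the luminal gate. Of 13 ion, water and solute transporters 3 were higher and 2 lower in the luminal gate (median 0.22). Car2, carbonic anhydrase 2, was higher by 3.49 and Aqp5, a water channel, by 2.49, while Car12, a membrane carbonic anhydrase, differed by -2.14. Of 13 amino acid transporters 3 were higher and 1 lower, led by Slc1a1, a glutamate carrier, at 3.78. That count was 7 without luminal replicate 1, 2 without basal replicate 1, and 1 with the 4 arrays alone or with all 28. Of 13 mesenchymal genes 4 were lower and none higher: Prrx1, a mesenchymal transcription factor, differed by -3.38, Ccn2, a matricellular protein, by -3.30, Vim, vimentin, by -2.88 and Cdh2, N-cadherin, by -2.16. The fibroblast marker mean was lower in the same direction, at 4.81 to 5.74 in the luminal and 5.74 to 6.82 in the basal arrays, and its part in these genes was not tested.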
